A study of Mus musculus with 36 samples.

Results

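H19, Igf2, Dlk1, Meg3 and Rasgrf1 are 5 mouse genes that belong to the imprinted domains whose control regions carry 5-methylcytosine (5mC) on the copy inherited from the father. Their CpGs were taken from the gene body of each gene in the GENCODE annotation of mm10, and from upstream flanks of 40 kb for Rasgrf1, 15 kb for Meg3, 5 kb for H19 and 2 kb for Igf2 and Dlk1. These loci held 971 of the 3615758 CpGs listed in at least 1 library. Of the 971, 275 had at least 5 reads in each of the 35 embryos compared, against 921363 such CpGs on all autosomes. In mm10 the genes lie at chr7:142575529-142578143 (H19, minus strand), chr7:142650766-142666816 (Igf2, minus strand, overlapped by Gm49394 and Igf2os), chr12:109452823-109463336 (Dlk1), chr12:109541001-109571726 (Meg3) and chr9:89909908-90026977 (Rasgrf1), the last 3 on the plus strand.

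The libraries were oxidative bisulfite reduced representation libraries, in which DNA is cut at MspI and TaqI sites and oxidised so that 5mC alone is read as methylated, from single whole brains at E11.5. The embryos, of the congenic strain 129S6.cg, carried no copy (WT), 1 copy (HET) or both copies (KO, knockout) of the Tet1 tm1Koh allele, in which an insertion sits at the start codon of full-length TET1, an enzyme that oxidises 5mC. All dams were HET for Tet1 and ate diets with succinylsulfathiazole, an antibacterial drug, in which folic acid was depleted to 0.1 ppm, held at the control dose of 3 ppm or raised to 30 ppm. At 30 ppm there were 6 KO, 5 HET and 3 WT embryos, at 3 ppm 5 KO, 3 HET and 4 WT, and at 0.1 ppm 5 KO, 2 HET and 2 WT. Another HET brain on 0.1 ppm, the shallowest library, had been left out by the study and entered only as an alternative. Each library is a separate embryo, but littermates share a dam. A whole brain mixes cell types and the files do not separate the parental copies, so a level is an average over both. The cell types present could not be checked, since no expression was measured in these libraries.

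Mean coverage per CpG was 10.9 to 61.5 reads among the libraries. At a CpG in Tet1 that differed between the genotypes, levels were 0 to 7.32% in 7 WT libraries, 8.33 to 69.2% in 10 HET libraries and 69.6 to 100% in 15 KO libraries, and this CpG was chosen for that separation. The remaining 3 libraries went against their labels there. The library labelled KO replicate 1 of 30 ppm was at 45.0% on 20 reads. Of those labelled WT, replicate 2 of 30 ppm was at 36.36% on 33 reads and replicate 2 of 0.1 ppm at 40.0% on 15 reads. The CpG had been chosen with these 3 libraries left out. The study's own sample list gives the first of these as HET, while GEO's label gives KO, and gives the other two as WT, like their labels. All 3 were kept under GEO's labels. Values without them are given over diets for the Dlk1 body and the last 5 kb of Igf2, and where a call or a count of calls at the loci moved. Mean 5mC over the autosomal CpGs shared by all embryos was 31.6% ± 0.419 (SD, n = 9) in WT, 32.2% ± 0.323 (n = 10) in HET and 33.9% ± 0.686 (n = 16) in KO. Without the 3 libraries it was 31.4% ± 0.237 (n = 7) in WT and 34.07% ± 0.286 (n = 15) in KO. The library labelled KO replicate 1 of 30 ppm was at 31.6%, in the range of these 7 WT libraries, 31.2 to 31.8%. WT replicate 2 of 30 ppm and of 0.1 ppm, at 32.4 and 32.0%, lay above that range and within the HET range of 31.8 to 32.7%.

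An imprinting control region is a CpG-rich stretch that keeps 5mC on 1 parental copy from the germ line onwards and sets which copy of the neighbouring genes is used. The region upstream of H19, a non-coding RNA, is bound by the insulator protein CTCF on the unmethylated maternal copy, which keeps enhancers from Igf2, a fetal growth factor. The intergenic region between Dlk1, a transmembrane ligand of the Notch family, and Meg3, a non-coding RNA, plays that part on chromosome 12, and an upstream region does so for Rasgrf1, a guanine nucleotide exchange factor for RAS in the brain. The start of Meg3 and the bodies of Igf2 and Dlk1 also hold secondary regions, which gain paternal 5mC after fertilisation.

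The stretches that the results turn on are shown first, because the double digest sampled only parts of each domain. CpGs are in capitals, and each stretch runs 5′ to 3′ on the strand of its gene. The Dlk1 stretch (chr12:109459834-109460018, plus strand, mm10) lay in coding exon sequence, and all of its 13 CpGs were read in every WT and KO embryo. The Igf2 stretch (chr7:142655722-142655767, minus strand) was also coding, with 3 of its 4 CpGs read in all of them.
Dlk1 coding exon: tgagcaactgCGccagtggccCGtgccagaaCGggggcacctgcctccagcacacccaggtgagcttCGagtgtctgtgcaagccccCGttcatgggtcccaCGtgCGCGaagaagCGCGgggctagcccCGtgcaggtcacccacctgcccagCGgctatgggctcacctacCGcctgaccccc
Igf2 coding exon: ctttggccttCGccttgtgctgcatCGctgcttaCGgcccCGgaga

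The H19 stretches lay in the control region window, 2 to 4 kb upstream of the gene, the second reaching its far edge, at chr7:142581132-142581241 and chr7:142582033-142582151 on the minus strand. The CpGs of the second had 5 reads in every WT and KO embryo but not in every HET embryo. It held 1 TGCCGC, the hexamer that ZFP57 binds when methylated, and 1 GGNGGCAG, which is part of the CTCF core motif. Both strands were searched, and the copies in this stretch did not overlap, although a GGNGGCAG with C in the open place contains the hexamer on its other strand. The letters TGCCGC were found in 16.3% and GGNGGCAG in 37.8% of the 52822 tiles of 1 kb tested between KO and WT. Neither is rare in 1 kb, but the stretch has 119 bases, and these shares do not say how rare either is at its length.
H19 control region stretch 1: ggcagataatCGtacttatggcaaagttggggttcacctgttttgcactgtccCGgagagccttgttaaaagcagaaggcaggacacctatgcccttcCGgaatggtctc
H19 control region stretch 2: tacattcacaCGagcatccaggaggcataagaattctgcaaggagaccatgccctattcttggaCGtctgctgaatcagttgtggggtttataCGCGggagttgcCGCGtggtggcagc

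Upstream of Rasgrf1, CpGs were read at chr9:89874630-89874671 and chr9:89878076-89878182 (plus strand), 35.3 and 31.8 kb before the gene start. Upstream of Meg3 the 3 CpGs read in every embryo lay together at chr12:109526684-109526729 (plus strand), at the far edge of the 10 to 15 kb window.
Rasgrf1 upstream stretch 1: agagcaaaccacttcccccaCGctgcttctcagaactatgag
Rasgrf1 upstream stretch 2: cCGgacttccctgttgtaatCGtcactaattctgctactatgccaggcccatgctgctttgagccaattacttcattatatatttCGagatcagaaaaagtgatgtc
Meg3 upstream stretch 1: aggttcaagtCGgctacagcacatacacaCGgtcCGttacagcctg

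The RefSeq promoter of Meg3 (GRCm38.p6, chr12:109540746-109541045, plus strand) overlaps the secondary region at the gene start and is shown because the 8 CpGs in it that all embryos shared had intermediate means, 34.4 to 44.3% in WT. It held 13 CpGs and 1 TGCCGC, letters present in 11.6% of 31396 autosomal promoters of the same length.
Meg3 promoter: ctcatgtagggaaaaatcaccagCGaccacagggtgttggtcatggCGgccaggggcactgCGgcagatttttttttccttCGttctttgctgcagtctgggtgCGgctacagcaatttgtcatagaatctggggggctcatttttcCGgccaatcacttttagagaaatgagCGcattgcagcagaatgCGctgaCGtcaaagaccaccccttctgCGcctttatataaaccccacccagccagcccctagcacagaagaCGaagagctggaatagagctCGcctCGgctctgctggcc

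To ask whether the loss of Tet1 changed 5mC at these loci, levels were compared in 14 windows, over the CpGs with 5 or more reads in every embryo, with an exact permutation test of KO or HET against WT that exchanged labels within a diet. Unless given per diet, a difference between genotypes, also at a single CpG or tile, is the mean of the differences within diets, weighted by group size, so it need not equal the difference of the means printed over all diets. This made 28 window tests, and their two-sided p-values are given unadjusted. The loci and windows were chosen with earlier results of these data known. Reads of neighbouring CpGs often come from the same molecule. In 8 of the 14 windows KO embryos were higher than WT embryos at p below 0.05, and in none were they lower. KO was also higher across much of the genome, so nothing is read from this count about the loci. Among 52822 tiles of 1 kb on all autosomes, 47.3% were higher in KO at an unadjusted p below 0.05 with no minimum difference in a quasi-binomial test, as were 5 of the 14 tiles in the loci, and the median difference of all tiles was 2.92 points. Of the 14 windows, the differences were largest in the Dlk1 body beyond its first kb and in the last 5 kb of Igf2. The intervals of both overlapped each other and that of the window 25 to 40 kb upstream of Rasgrf1. Differences were under 1 point in the rest of the Igf2 body and at the Dlk1 start, and not detected in the H19 control region or at the start of Meg3. The plot of 5mC by embryo shows 6 of these windows.

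**Figure D1:**
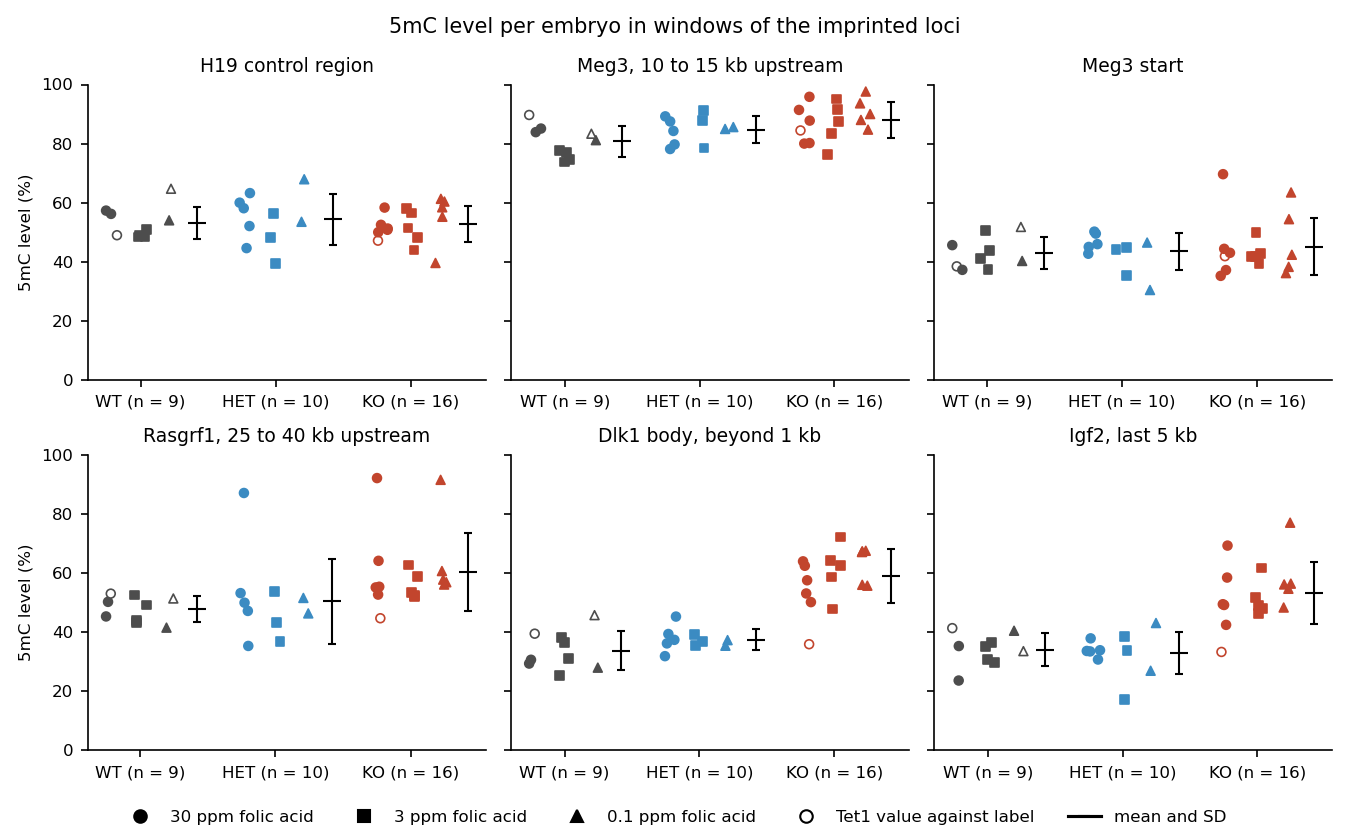
5mC level (%, vertical axis) of each embryo by genotype in 6 windows, with the diet given by the symbol, open symbols for the 3 libraries whose Tet1 values went against their labels, and the mean and SD beside each genotype. KO embryos sat at 35.9 to 72.3% in the Dlk1 body against 25.3 to 45.79% in WT. In the H19 control region all embryos lay between 39.5 and 67.9%, and the ranges of the genotypes overlapped.

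Dlk1 showed the largest difference in percentage points among the 14 windows. Beyond the first kb of the gene, 15 CpGs were shared, 13 of them in the coding stretch printed above and 2 beyond it in untranslated sequence. The level was 25.3% in the lowest, 31.0% in the median and 45.79% in the highest WT embryo. In KO it was 35.9, 60.6 and 72.3%, and in HET 31.9, 37.1 and 45.31%. All but 1 of the 16 KO embryos, 15 in number, exceeded the highest WT value. The library labelled KO replicate 1 of 30 ppm did not, and stood at 35.9%, within the ranges of both WT and HET. It counts as KO here by its label, although its Tet1 value lay in the HET range and the study lists it as HET. The mean was 33.8% ± 6.56 in WT (n = 9), 37.5% ± 3.49 in HET (n = 10) and 58.9% ± 9.15 in KO (SD, n = 16). KO exceeded WT by 25.1 points (95% permutation interval 17.96 to 32.1, exact permutation p = 9.0e-06). Without that library the difference was 26.4 points (exact permutation p = 6.7e-06), and without the 3 libraries it was 29.3 points.

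The difference was spread along the stretch. All 15 CpGs were higher in KO, by 10.997 to 33.3 points within diets, and 12 of them by at least 20 points. At the first CpG of the coding stretch (chr12:109459844), the mean was 30.7% in WT, 38.67% in HET and 62.9% in KO. The lowest WT level, 13.3% at chr12:109459936, stood at 41.6% in KO. The 2 untranslated CpGs, at chr12:109460448 and chr12:109460457, began higher, at 66.3 and 72.4% in WT, and reached 78.5 and 83.8% in KO. In contrast, the 42 shared CpGs around the Dlk1 start were nearly unmethylated in every embryo, between 0.367 and 1.56%. There KO was higher by 0.29 points (exact permutation p = 0.024), and by 0.24 points (exact permutation p = 0.069) without the 3 libraries.

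In Igf2, too, KO embryos were higher in the body. In the last 5 kb of the gene, 5 CpGs were shared, and the WT level was 23.7% in the lowest, 35.3% in the median and 41.39% in the highest embryo. The KO values were 33.3, 50.6 and 77.1%. The highest WT value was exceeded in 15 of the 16 KO embryos, and KO replicate 1 of 30 ppm, listed as HET by the study, was again the remaining one. KO exceeded WT by 18.7 points (interval 11.2 to 26.3, exact permutation p = 9.4e-05), and by 19.9 points (exact permutation p = 6.7e-06) without that library. Without the 3 libraries it was 20.2 points (exact permutation p = 0.00019). HET differed by -1.45 points (interval -7.95 to 4.95, exact permutation p = 0.65).

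In this window the larger differences were at the 3 coding CpGs printed above, within the sequence that encodes the growth factor precursor. At chr7:142655732, chr7:142655741 and chr7:142655756 the WT means were 10.96, 3.29 and 16.4%, and the KO means 38.0, 26.8 and 49.4%. A further pair of CpGs in the intron before, at chr7:142657313 and chr7:142657342, were at 18.1 and 24.6% in WT and at 52.3 and 52.2% in KO. An intronic CpG nearer the start, at chr7:142665553, was 54.6% in WT and 74.2% in KO. The 2 CpGs close to the gene end were already high in WT, at 80.1 and 86.4%, and differed by 7.20 and 4.51 points.

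The rest of the Igf2 body, with 123 shared CpGs, had little 5mC, with a WT mean under 5% at 120 of them. The other 3 are the intronic CpGs just given. Levels were 1.05 to 1.46% in WT, 1.07 to 1.67% in HET and 1.54 to 2.25% in KO, so the groups of 9 WT and 16 KO embryos did not overlap. KO was higher by 0.62 points (exact permutation p = 4.5e-06, which no relabelling can undercut). The 3 intronic CpGs carry part of this, and over the 120 CpGs alone KO was higher by 0.22 points, with 8 of the 16 KO embryos above the highest WT value, a split made after the values had been seen and given with no test. With a coverage minimum of 10, which leaves fewer CpGs, it was 0.20 points. The 4 CpGs in the 2 kb upstream of Igf2 were at 91.0% ± 2.73 in WT and 91.9% ± 4.51 in KO, a difference of 0.87 points (interval -2.73 to 4.47, exact permutation p = 0.63).

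**Figure D2:**
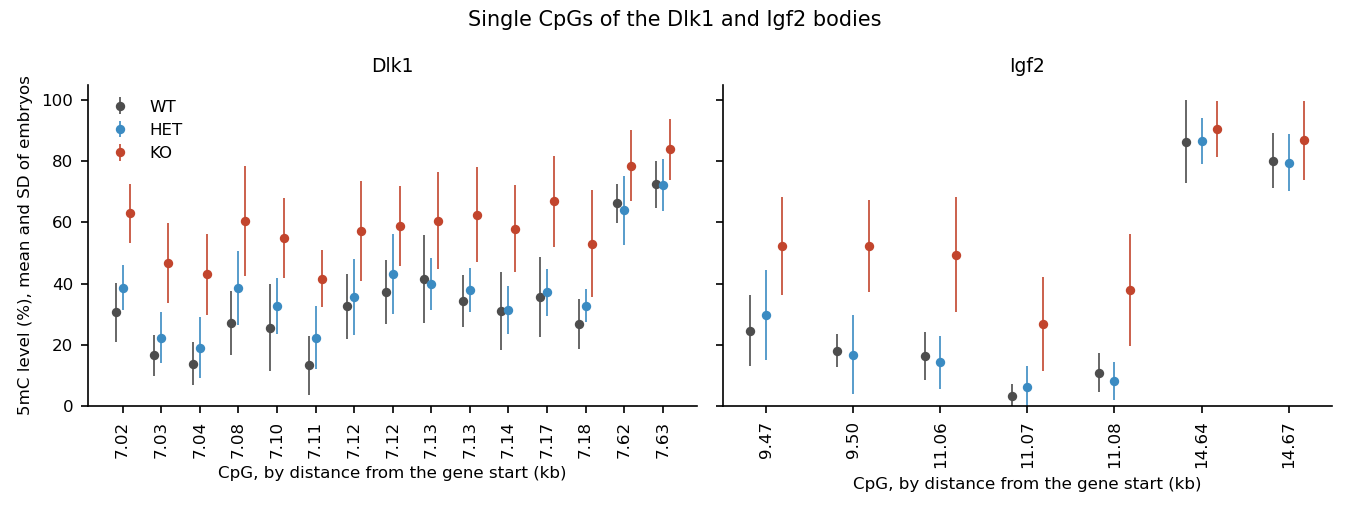
5mC level (%, mean and SD of embryos) at single CpGs of the Dlk1 and Igf2 bodies in WT, HET and KO, ordered by distance from the gene start in kb. Drawn are the 15 shared CpGs of Dlk1 beyond the first kb and the last 7 of Igf2, where KO was above WT by 10.997 to 33.3 and by 4.51 to 33.4 points as averaged within diets. Over all 275 shared CpGs of the loci KO was higher at 198, with a median difference of 0.40 points and a range from -4.29 to 33.4. KO was also higher across much of the genome. The share over all autosomal CpGs is not given, so nothing particular to the loci is read from this count.

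Over all diets, the genotypes had like levels in the H19 control region. Over the 3 shared CpGs the level was 48.4% in the lowest, 51.0% in the median and 64.7% in the highest WT embryo, and 39.6, 52.0 and 61.3% in KO. No KO embryo was above every WT embryo, and KO differed from WT by -1.05 points (interval -5.95 to 3.75, exact permutation p = 0.67). HET differed by 0.46 points (interval -5.74 to 6.66, exact permutation p = 0.87). The upper bound for KO, 3.75 points, lies below the 25.1 points by which KO exceeded WT in the Dlk1 body. It lies above the median difference of all tiles, 2.92 points. The upper bound for HET, 6.66 points, does not lie below the HET difference in the Dlk1 body, 3.55 points (interval -1.95 to 8.95). Only 16 of the 60 CpGs of the window were listed in any library, and when each embryo's own CpGs were used the difference was 4.02 points (exact permutation p = 0.26). At 3, 30 and 0.1 ppm the means were 49.2, 54.2 and 59.4% in WT and 48.1, 55.6 and 60.7% in HET. In KO they were 51.6, 51.7 and 55.0%. These window means were not tested between diets, and at 0.1 ppm there were 2 WT and 2 HET embryos.

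The 1 kb from chr7:142582001, which holds the second H19 stretch, varied widely, from 25.4 to 90.9% in WT and from 34.0 to 83.9% in KO. Its 7 CpGs were covered by as few as 35 read counts in 1 embryo, that is 5 for each CpG. Closer to the gene, 4 CpGs in the 1 kb before the H19 start were at 32.8% ± 3.801 in WT, 32.1% ± 7.69 in HET and 40.7% ± 9.29 in KO. KO was higher there by 8.37 points (interval 1.67 to 15.2, exact permutation p = 0.017), and 7 KO embryos exceeded the highest WT value. In the H19 body, 3 CpGs stood at 44.3% ± 7.28 in WT and 46.3% ± 10.2 in KO (difference 1.54 points, interval -6.66 to 9.74, exact permutation p = 0.70).

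At Meg3, no difference was detected in the secondary region at the gene start. Over 11 CpGs the values were 37.3% in the lowest, 41.0% in the median and 51.8% in the highest WT embryo, and 35.22, 42.12 and 69.6% in KO. The groups overlapped, with 3 KO embryos beyond the highest WT value. KO differed by 1.91 points (interval -5.39 to 9.41, exact permutation p = 0.62). In the rest of the Meg3 body, WT stood at 67.3% ± 6.32 and KO at 67.7% ± 6.05 (difference 0.09 points, interval -5.41 to 5.49, exact permutation p = 0.97). With each CpG weighted equally the difference was 2.28 points (exact permutation p = 0.043), and without the 3 libraries against their labels it was -1.60 points.

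Upstream of Meg3, in the window at 10 to 15 kb that was placed to hold the intergenic control region, the 3 shared CpGs were highly methylated in every embryo. Their WT mean was 80.7%, against 53.1% in the H19 control region and 47.9% at 25 to 40 kb upstream of Rasgrf1, so they are described by their position and not as part of the control region. The level was 73.8% in the lowest, 81.2% in the median and 89.7% in the highest WT embryo, and 76.4, 87.9 and 97.6% in KO. KO was higher by 6.58 points (interval 1.58 to 11.5, exact permutation p = 0.013), and 7 KO embryos passed the highest WT value. The difference of means was 0.39 points on 30 ppm (-1.45 to 2.13 with 1 embryo left out in turn), 10.9 on 3 ppm and 8.55 on 0.1 ppm. The tile of these CpGs was not called for a difference of the KO effect between diets (quasi-binomial adjusted p = 0.70 for 30 against 3 ppm, unadjusted 0.018, and adjusted p = 0.996 for 0.1 against 3 ppm). The WT mean was low on 3 ppm, at 75.8%, where HET also lay 9.98 points above it. With litters in place of diets as strata the difference was 4.84 points (exact permutation p = 0.11). These CpGs lie at the edge of the window, of whose 135 CpGs 23 were listed at all, so most of the window was not measured in all embryos.

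Rasgrf1 was higher in KO both upstream and within the gene. In the window 25 to 40 kb upstream, 5 of the 209 CpGs were listed in any library, so most of it was not measured. The 3 CpGs shared there were at 41.6% in the lowest, 49.2% in the median and 53.1% in the highest WT embryo. The KO values were 44.7, 56.5 and 92.2%, and 12 of these embryos were beyond the highest WT value. KO was higher by 11.9 points (interval 2.62 to 21.4, exact permutation p = 0.015). Without the 3 embryos described next the difference was 8.00 points, given with no test because they were picked out for their values in this window. Nearer the gene, 3 CpGs at 2 to 25 kb upstream, a window added after the values had been seen, were at 55.2% ± 5.602 in WT, 58.6% ± 9.76 in HET and 72.5% ± 10.4 in KO. KO was higher there by 17.4 points, and by 13.1, 16.7 and 24.7 points at 30, 3 and 0.1 ppm, given with no test. The 3 embryos described next stood at 79.5 to 97.4% in this window, 2 of them above all others. The KO embryos among them were kept in these differences. Around the start, 25 CpGs were at 0.153 to 1.69% in every embryo. In the rest of the body the level was 80.1% ± 3.65 in WT and 86.1% ± 3.67 in KO (difference 6.09 points, interval 2.99 to 9.29, exact permutation p = 0.0012). The widest difference there was at an intronic CpG, chr9:89972463, with means of 42.8% in WT and 65.1% in KO.

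At the few CpGs read from 23.9 to 35.3 kb upstream of Rasgrf1, 3 embryos were far more methylated than the other 32. They were HET replicate 3 and KO replicate 4 of 30 ppm and KO replicate 5 of 0.1 ppm, and they were picked out for these values, which are therefore a description. In the window 25 to 40 kb upstream they stood at 87.1, 92.2 and 91.6%, while the others lay between 35.37 and 64.2%. Of 9 CpGs between 23.9 and 35.3 kb upstream that were covered in all 3, each of the 3 was above all other embryos covered there at 7. At the CpG chr9:89878096 printed above, for example, they were at 88.9, 100 and 94.6% in that order, against 22.2 to 66.7% in the others. The 3 came from different litters, and their littermates were at 35.37 to 55.4%, 47.2 to 53.1% and 51.6%. In the Rasgrf1 start window they were between 0.584 and 0.930%, and in the H19 control region between 44.6 and 58.4%, within the range of the others. Their mean 5mC over all shared CpGs, 31.8, 34.0 and 34.4%, also lay within that of their genotype.

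**Figure D3:**
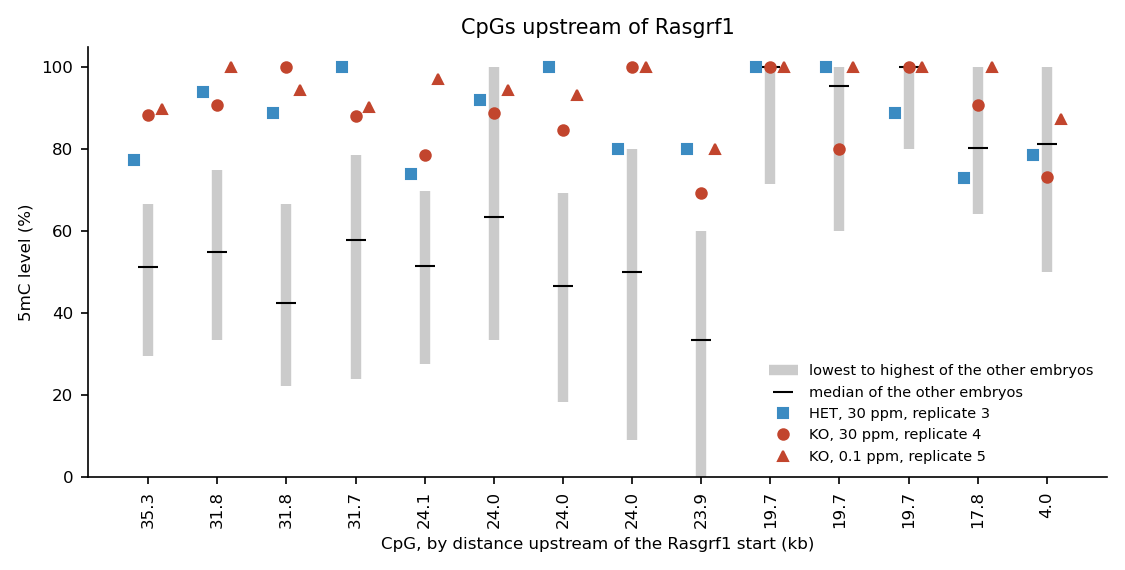
5mC level (%) at CpGs upstream of Rasgrf1, ordered by distance from the gene start in kb, in the 3 embryos that stood apart (symbols) and in the others (grey bars from lowest to highest, black dash at the median). From 35.3 to 23.9 kb upstream the 3 embryos were at 69.2 to 100%, and at the 5 CpGs drawn nearer the gene, from 19.7 to 3.99 kb, they lay within the range of the others.

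**Figure D4:**
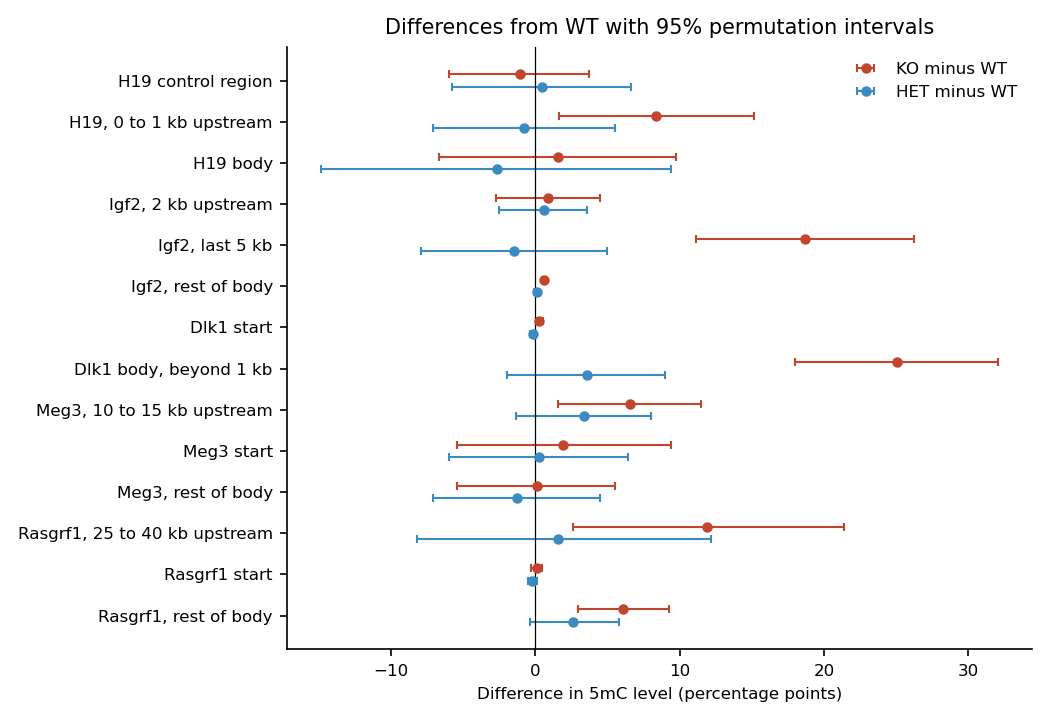
Difference in 5mC level from WT, in percentage points, for KO and HET in the 14 windows, with 95% permutation intervals. KO intervals lie above 0 in 8 windows, with the Dlk1 body at 25.1 and the last 5 kb of Igf2 at 18.7 points, and every HET interval includes 0.

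In HET embryos no window differed from WT at p below 0.05, and the smallest exact permutation p was 0.10, in the Rasgrf1 body. Without the 3 libraries that went against their labels, HET exceeded WT by 6.50 points in the Dlk1 body (exact permutation p = 0.010) and by 3.92 points in the Rasgrf1 body (p = 0.020). This rests on 7 WT embryos. HET and KO were not compared with each other.

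To set the loci against the genome, all autosomes were divided into tiles of 1 kb and tested with a quasi-binomial logistic model on read counts with diet as a covariate, p-values being adjusted by Benjamini-Hochberg over all tiles. Calls needed an adjusted p below 0.05 together with a difference of 10 points or more. Between KO and WT over diets, 14.2% of 52822 tiles were called, and the median difference of all tiles was 2.92 points. Of the 14 tiles in the loci, 3 were called, all higher in KO, and their median difference was 3.81 points, a share of called tiles of the same order as the background. Without the 3 libraries that went against their labels, 4 of the 14 and 9486 of 53451 in all were called. The called tiles were chr12:109459001-109460000 in Dlk1 (28.3 points, quasi-binomial adjusted p = 6.6e-09), chr12:109460001-109461000 in Dlk1 (13.9 points, adjusted p = 0.00017) and chr7:142655001-142656000 in Igf2 (27.1 points, adjusted p = 5.7e-07). In the quasi-binomial test across all tiles, the tiles before the H19 start (8.37 points, adjusted p = 0.0092) and upstream of Meg3 (6.58 points, adjusted p = 0.0071) passed the adjusted p but not the 10 points. The H19 control region tile was not called in the quasi-binomial test (-1.05 points, adjusted p = 0.76). The Rasgrf1 window at 25 to 40 kb upstream held no tested tile.

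Within diets, the called tiles were again in the bodies and flanks. At 3 ppm, 5 of 18 tiles in the loci were called against 16.3% of 65004 in all, namely the 3 above, chr12:109462001-109463000 in Dlk1 (28.0 points) and the tile upstream of Meg3 (10.9 points). At 0.1 ppm, 4 of 21 were called against 11.2% of 69314. These were the first Dlk1 tile (29.0 points), the Igf2 tile (30.8 points), chr7:142657001-142658000 in Igf2 (15.96 points) and chr9:89885001-89886000, upstream of Rasgrf1 (27.0 points). With 1 embryo left out in turn, the Igf2 tiles ranged from 22.7 to 34.2 and from 13.2 to 18.7 points. The Rasgrf1 tile ranged from 20.3 to 33.1 points. It holds the CpG chr9:89885821, at which KO replicate 5, picked out above for its high values, was at 97.3%. That embryo was kept in the call of this tile. Without WT replicate 2, which went against its label, 5 of 21 and 9744 of 72515 were called at this dose. Without WT replicate 1 instead, fewer of all tiles were called than with both, though not fewer in the loci. Either omission left a lone WT embryo. At 30 ppm, 1 of 19 was called against 5.66% of 65354, the first Dlk1 tile (23.7 points, quasi-binomial adjusted p = 0.015). The calls of this diet moved with single libraries, in the loci and in all tiles alike. Without both libraries that went against their labels, 8 of 20 tiles in the loci were called and 10453 of 65399 in all. Without KO replicate 1 alone these were 4 of 19 and 7733 of 65152, without WT replicate 2 alone 3 of 19 and 5973 of 65622, and without WT replicate 1 0 of 19 and 16 of 65049. In the Dlk1 body the difference between KO and WT means was 20.7, 28.5 and 25.9 points at 30, 3 and 0.1 ppm, and in the last 5 kb of Igf2 it was 16.9, 18.4 and 21.5 points. These values include both libraries against their labels at 30 ppm and WT replicate 2 at 0.1 ppm. With 1 embryo left out in turn, the first Dlk1 tile gave 21.4 to 27.6 points at 30 ppm. At 3 ppm it gave 29.0 to 35.9 and at 0.1 ppm 19.8 to 38.1, so no order of the diets is read from these values.

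With no WT or KO embryo left out, no diet difference was called at the loci in these genotypes. HET embryos were not in the diet or interaction fits, so they were not tested between diets. Between 30 and 3 ppm, 0% of 59101 tiles were called in WT and 0% of 64989 in KO, and none of the 21 and 18 tiles of the loci. Between 0.1 and 3 ppm, 0.131% of 66994 tiles were called in WT, none of the 21 in the loci, and 0% of 59941 in KO, with none of 17. The difference of the KO effect between diets, tested as an interaction, was called in 0% of 57098 tiles for 30 against 3 ppm and in 0% of 58052 for 0.1 against 3 ppm, with 15 tiles of the loci in each. At an unadjusted p below 0.05 and 10 points, the same quasi-binomial test gave 320, 728, 1743 and 436 tiles for the diets (30 ppm in WT and KO, then 0.1 ppm in WT and KO) and 1445 and 1302 for the interactions. In the loci these numbers were 1, 0, 0 and 0 for the diets, and 2 and 1 for the interactions. Comparisons with 0.1 ppm had 2 WT embryos. Between 0.1 and 3 ppm in WT, 1 of 21 tiles in the loci and 360 of 67275 in all were called without WT replicate 1 of 0.1 ppm, and 2 of 24 and 421 of 68909 without replicate 2. HET against WT over diets gave 0.277% of 56328 tiles called, and 0 of the 17 in the loci, also with 0 at an unadjusted p below 0.05 and 10 points.

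Among KO embryos, the level in the Dlk1 body was 60.1% ± 6.93 in the 5 labelled with a neural tube defect (50.2 to 67.6%), 60.3% ± 8.00 in the 7 labelled normal (47.8 to 72.3%) and 55.1% ± 14.1 in the 4 labelled inHB (35.9 to 67.1%), among them the library listed as HET. The ranges overlapped. In the last 5 kb of Igf2 these values were 52.4% ± 6.78, 54.85% ± 11.01 and 51.6% ± 14.9. Upstream of Igf2 they were 87.9% ± 4.69, 93.5% ± 3.48 and 94.1% ± 2.84. In the window upstream of Meg3 they were 91.4% ± 5.46, 85.8% ± 6.34 and 87.4% ± 6.22. The embryos with a neural tube defect thus had the lowest mean upstream of Igf2 and the highest upstream of Meg3. These values are from a few of the 15 windows and are a description, with no test.

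Other imprinted genes were read by counts alone. Of 6 neighbours in these domains, 5 had tiles tested between KO and WT over diets, and 0 of their 8 tiles were called against 14.2% of all tiles, with a median difference of 0.67 points. Tiles at the promoters of 12 genes of maternally methylated domains numbered 10, at 7 of the genes, with a median difference of 1.80 points, and the 1 that was called lay at Grb10, a growth factor receptor adapter. Within diets, the neighbours had 0 of 9 tiles called at 30 ppm, 1 of 8 at 3 ppm, at the non-coding RNA Rian, and 0 of 11 at 0.1 ppm, and the promoters 0 of 11, 1 of 10 and 1 of 11, both at Grb10, against 5.66, 16.3 and 11.2% of all tiles.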

How the data were processed

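The authors trimmed reads with Trim Galore 0.6.10, aligned them to mm10 with Bismark 0.24.1 and collapsed duplicates by molecular identifier with UMI-tools. For each embryo, the deposited file lists per CpG a methylated fraction and a read count. Their product was whole on every line, so methylated counts were recovered. Positions count from 0 and were raised by 1. The deposited lists of the authors' differentially methylated regions were not used.

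Window levels pool reads over CpGs with 5 or more reads in each of 35 embryos. Genotypes were compared by a two-sided exact permutation test within diet, and inverting it gave the 95% intervals. Tiles of 1 kb were tested with at least 3 such CpGs in the embryos compared and an SD of at least 2 points, by a quasi-binomial F test with dispersion moderated across tiles and held at 1 or above, tested on simulated data (Python 3.11.15, NumPy 2.4.6, SciPy 1.17.1). Tiles were named if they lay in the control region or start windows or were called in a comparison. CpGs on 1 fragment share molecules, so summed reads overstate the depth. Motifs are counted on both strands. Alternatives were a coverage minimum of 10, no SD filter, no minimum difference, shifted tiles, litter as a replicate block, other CpG weights and leaving out embryos. Members, windows and lists were chosen with earlier results of these data known.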

Additional observations from a re-analysis of the deposited data

Results flagged for a closer look

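In the 5 groups of 4 to 6 embryos, levels in 15 windows gave 75 window groups, which were examined for an embryo standing apart by Dixon's criterion, and 5 were found, where chance alone gives about 1 in 20. Of these 5, 2 are the Rasgrf1 upstream values of 1 embryo that had already been picked out for them, in 1 case in a window added after the values had been seen, so there the criterion is no test. Among KO embryos on 0.1 ppm, replicate 2 was at 39.6% in the H19 control region, on 48 reads, below the others at 55.2 to 61.3%. Replicate 1 was at 77.1% in the last 5 kb of Igf2, also on 48 reads, above the others at 48.4 to 56.5%. Replicate 5, one of the 3 embryos with a highly methylated Rasgrf1 upstream region, was at 91.6% in the window 25 to 40 kb upstream (others 56.1 to 60.7%) and at 97.4% at 2 to 25 kb upstream (others 67.9 to 76.1%). Among KO embryos on 30 ppm, replicate 3 was at 69.6% at the start of Meg3, above the others at 35.22 to 44.4%.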

How the results depend on the processing

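With litter as a replicate block, 3 tiles of the loci were called between KO and WT over diets, as without it, and 7289 of all tiles. Litter strata took the window upstream of Meg3 above a p of 0.05, moved the start of Meg3 to -0.0019 points, and changed no other call, leaving 7 windows of 14 against 8. A coverage of 10 and leaving out the libraries against their labels each gave 7, losing the Dlk1 start. Equal weights gave 9, gaining the Meg3 body (2.28 points, exact permutation p = 0.043), as did own CpGs, gaining the Rasgrf1 start (0.66 points, p = 0.00067). Shifted tiles gave 2 calls of 11 in the loci and 7542 of 52836. Without a minimum difference 5 tiles of the loci and 21281 of all were called in this comparison, and 4427 of all at a coverage of 10, where fewer were tested. A coverage of 10 gave 2 of 12 tiles of the loci and 5408 of 36587 in all at 0.1 ppm, and 5 of 13 and 7042 of 38037 at 3 ppm. Without the libraries against their labels, 8 tiles of the loci and 10453 of all were called at 30 ppm, and 995 of all in HET, where the block gave 239. HET then passed in 2 windows, and in 1 without the 3 embryos apart at Rasgrf1. Leaving out embryos in turn gave 0 to 4 tiles of the loci at 30 ppm (16 to 7733 of all), 4 to 7 at 3 ppm (9783 to 11218 of all), 4 to 5 at 0.1 ppm (3481 to 9744 of all) and 0 to 2 between 0.1 and 3 ppm in WT (134 to 421 of all), and 0 to 157 of all between 30 and 3 ppm in WT. The lone WT embryo then left at 0.1 ppm is assumed to vary like the rest. At 30 ppm the H19 control region tile ranged from -1.44 to 0.65 points and the Meg3 upstream tile from -1.45 to 2.13.

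The following small differences changed sign, and the cause was not tested. Between KO and WT, leaving out the libraries against their labels gave 0.037 points in the H19 control region (window and tile), -0.013 upstream of Igf2 and -1.60 in the Meg3 body (-0.65 without KO replicate 1 of 30 ppm alone, which changed no call). Each embryo's own CpGs gave 4.02 in the H19 control region, and a coverage of 10 gave -3.30 at the Meg3 start. For HET, the Igf2 tile was at 0.28 with the omitted library included, 0.10 with the block and 0.28 without the libraries against their labels. These libraries left out, HET was at 0.49 before the H19 start and -0.51 upstream of Igf2. Equal weights gave -0.22 at the Meg3 start and 2.44 in its body. Own CpGs gave 1.30 before the H19 start, 0.44 in its body, -0.32 at the Meg3 start and -1.11 at 2 to 25 kb upstream of Rasgrf1, whose window at 25 to 40 kb was at -1.68 without the 3 embryos apart. Leaving out these 3 embryos or KO replicate 1 over diets, litter strata and the window at 2 to 25 kb were chosen after seeing the data.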
